A study of Mus musculus with 10 samples.

Results

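Xcl1, Xcr1, Flt3l, Flt3, Clec9a, Batf3 and Irf8 are the 7 genes described here, of 32285 genes in the deposited single-cell matrix, grouped because they form the signalling and transcription axis of cross-presenting dendritic cells. They were followed through the authors' 33 cell clusters, the authors' 9 T cell states, 4 treatments and 12 mice, and in sorted tumour cells. KP cells, a mouse lung tumour line, were given intravenously to syngeneic mice, and mice with lung tumours were treated for 11 days. The single-cell groups were SHP099 with SX682, SHP099 alone, SX682 alone and Vehicle, with 3 mice each. The sorted groups were 3 SHP099 and 3 Vehicle libraries of Epcam+ cells. Tumour nodules were dissociated, and the single-cell suspensions were enriched for live cells with magnetic beads. SHP099 inhibits the phosphatase SHP2, SX682 inhibits the chemokine receptors CXCR1 and CXCR2, and all groups carried the same tumour line; mouse strain, age and dose were not given in the sources used here.

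Type 1 conventional dendritic cells (cDC1) take up dead-cell material and present its peptides on MHC class I to CD8 T cells, a process called cross-presentation. NK cells and activated CD8 T cells release the chemokine XCL1, which draws cDC1 through the receptor XCR1, and the growth factor FLT3 ligand maintains dendritic cells through the receptor FLT3. BATF3 and IRF8 are transcription factors on which cDC1 development depends, and CLEC9A is the cDC1 surface receptor for filamentous actin exposed by dead cells.

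On GRCm38 (mm10), with the GENCODE vM21 annotation, all 7 genes are protein coding. Xcl1 lies on the minus strand of chromosome 1 from 164931644 to 164935527 and has 3 exons, which share up to 98 bases with a single exon of the antisense gene Gm20743. Xcr1 occupies 123852315 to 123862029 of chromosome 9, minus strand. Flt3l spans 45129788 to 45136432 of chromosome 7, minus strand, and its exons share up to 214 bases with a single exon of Gm45713 on the same strand. Flt3 covers 147330741 to 147400489 of chromosome 5, minus strand. Clec9a runs from 129408862 to 129424763 on the plus strand of chromosome 6 and shares up to 184 exonic bases with a single exon of its neighbour Clec1b. Batf3 lies on chromosome 1 from 191097847 to 191108945 and Irf8 on chromosome 8 from 120736358 to 120756694, both on the plus strand and with no exon shared with another gene.

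The 250 bases just upstream of the start of both ligand genes are printed, because the ligands were members whose levels differed with treatment in lymphocytes. They are taken from the RefSeq promoter table for GRCm38.p6, at chr7:45136433-45136682 (minus strand) for Flt3l and chr1:164935523-164935772 (minus strand) for Xcl1. Each runs 5′ to 3′ towards the start, and capitals mark a match, on the opposite strand, to the IRF motif described next.
Flt3l: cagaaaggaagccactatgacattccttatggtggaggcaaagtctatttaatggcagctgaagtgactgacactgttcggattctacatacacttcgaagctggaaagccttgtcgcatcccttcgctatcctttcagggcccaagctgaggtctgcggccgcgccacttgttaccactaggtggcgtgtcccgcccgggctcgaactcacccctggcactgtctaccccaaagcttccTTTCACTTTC
Xcl1: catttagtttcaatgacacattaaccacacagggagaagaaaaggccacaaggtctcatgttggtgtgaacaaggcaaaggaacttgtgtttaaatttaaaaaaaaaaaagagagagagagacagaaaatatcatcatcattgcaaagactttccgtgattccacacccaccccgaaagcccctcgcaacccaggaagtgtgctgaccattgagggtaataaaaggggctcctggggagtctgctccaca
The windows of all 7 genes were searched on both strands for TGANTCA (an AP-1 motif), for GAAA followed by any 2 bases and GAAA again (an IRF motif), and for GGAA followed by any 2 bases and GAAA (an ETS-IRF motif). Flt3l alone held a match, 1 copy of the IRF motif in the 10 bases next to the start. Over the 32851 promoter windows of the table, 7.81% held the AP-1 motif, 3.44% the IRF motif and 2.72% the ETS-IRF motif. The match is a run of letters and shows no binding, and none of the files measure binding there.

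In the single-cell matrix 44986 cells carried 500 UMIs or more each, 2025 at the median. Levels are given as CPM, the UMIs of a gene per 1000000 UMIs, summed over the cells of a cluster in a mouse. Hashtagged cells of the 3 mice of a treatment were pooled in 1 capture, so an effect of the capture cannot be told apart from one of the treatment. Barcode sequences numbered 43973, of which 1009 occurred in more than 1 pool and covered 2022 cells. Median UMIs per cell over mice were 1532 to 1632.5 with SHP099+SX682, 1440 to 1612 with SHP099, 2501.5 to 2731.5 with SX682 and 2824 to 4838 in Vehicle mice. Cluster 18 was called cDC1-like because 10 of 10 listed cDC1 markers, none of them a gene described here, stood higher in it. Of the same markers, 2 stood higher in cluster 19 (cDC2-like) and 0 in cluster 17 (mature dendritic-like). Clustering used these genes, so levels between clusters are a description with no test.

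**Figure D1:**
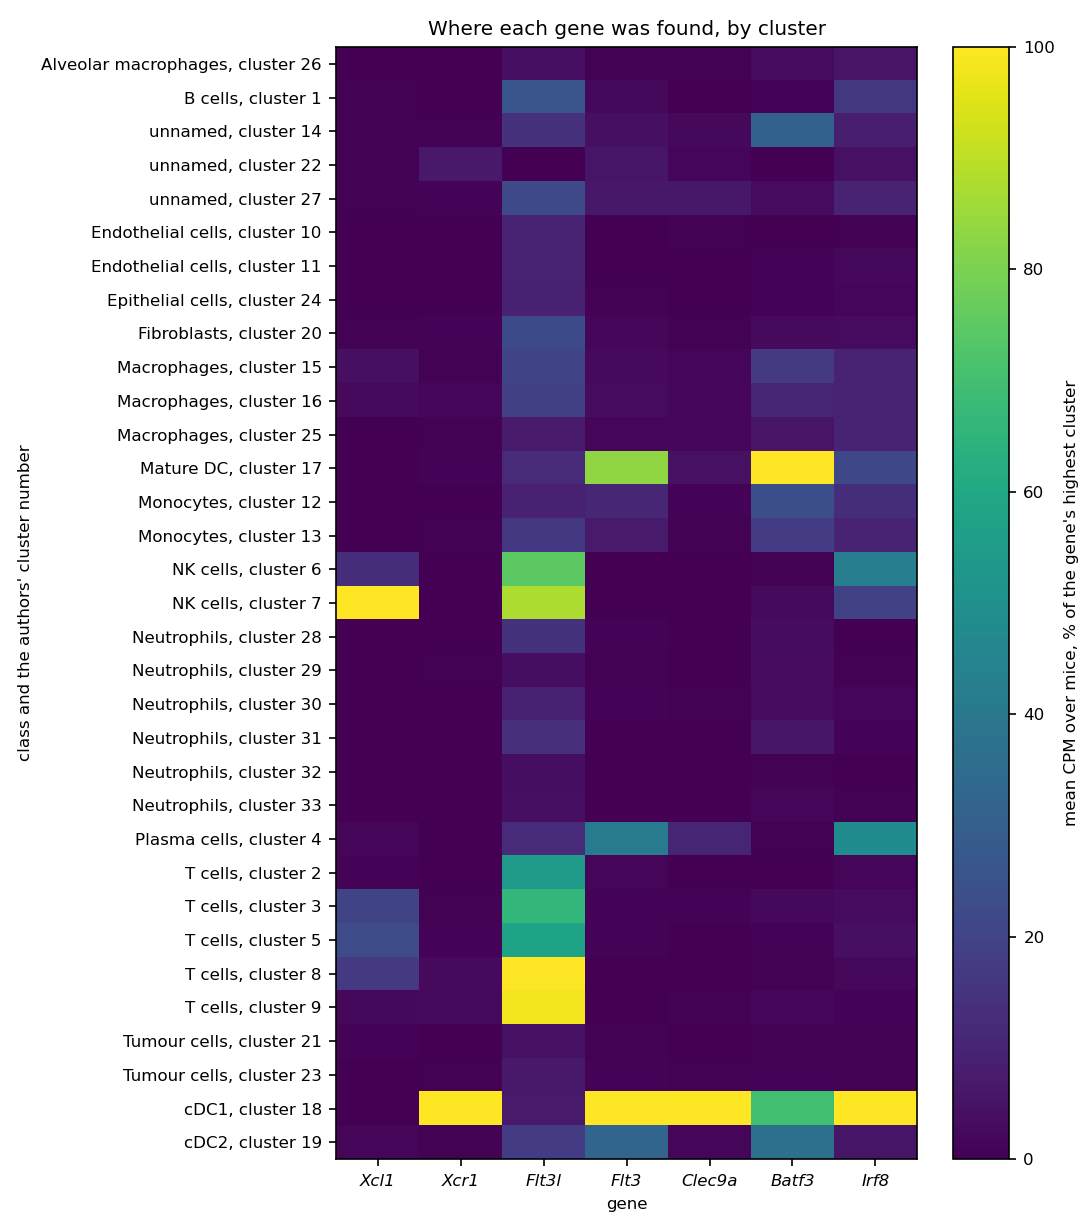
Mean CPM over mice of each gene (columns) in the authors' 33 clusters (rows, with class), as a percentage of that gene's highest cluster. Xcl1 peaked in NK cluster 7, Xcr1, Flt3, Clec9a and Irf8 in cDC1 cluster 18, Batf3 in mature dendritic cluster 17, and Flt3l spread over the T and NK clusters.

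Xcl1, the chemokine ligand of XCR1, was highest in a minor NK population. NK cluster 7, led by the granzyme gene Gzmc, had 2475 ± 1036 CPM (SD, n = 12 mice) and a UMI of Xcl1 in 80.8% of its cells. The T cell clusters 5, 3 and 8 followed with 563 ± 345, 510 ± 211 and 410 ± 304 CPM, and NK cluster 6, led by Gzma, had 323 ± 166 CPM (SD, n = 12 each). These last 4 clusters did not differ beyond their spread, while cluster 7 stood above them. After each cell was thinned to 1000 UMIs, 66.1% of cluster 7 cells kept an Xcl1 UMI (95% exact interval 61.8% to 70.2%, counting error only). The same share was 0.196% in tumour cluster 21, whose cells had a median of 7395 UMIs against 2234 in cluster 7. T cells held 44.2% of the 13330 Xcl1 UMIs of all cells, NK cells 32.6% and macrophages 17.1%. The same classes held 8.24%, 2.16% and 23.95% of all UMIs. In Vehicle mice the order differed, with NK cells at 38.8% of the Xcl1 UMIs, macrophages at 29.01% and T cells at 25.5%. Of all UMIs in Vehicle mice these classes held 1.42%, 26.7% and 3.52%. T cells led in the treated mice, at 62.5% of the Xcl1 UMIs with SHP099+SX682, 51.7% with SHP099 and 43.02% with SX682.

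Within macrophages, Xcl1 followed T cell and NK cell transcripts. In macrophage cluster 15, 94.3% of the Xcl1 UMIs lay in the 1077 of 1996 cells with at least 1 UMI of Cd3e, Cd3d, Cd3g, Trac or Trbc2, at 135 CPM, against 13.1 CPM in the cells without one. In macrophage clusters 16 and 25 the cells with such a UMI held 93.0% and 90.0% of the Xcl1 UMIs. Flt3l split the same way in cluster 15, with 23.2 CPM in cells with a T cell UMI and 7.34 CPM in cells without. The 582 cells of cluster 15 with a UMI of the listed NK markers held 64.6% of its Xcl1 UMIs. They had 156 CPM of Xcl1, against 49.1 CPM in the cells without one. In clusters 16 and 25 such cells held 63.4% and 44.4% of the Xcl1 UMIs. The overlap of these cells with those holding a T cell UMI was not counted. The cells with a T cell UMI were also deeper, with a median of 7881 UMIs against 5526, and the part of doublets or free RNA in these values was not tested.

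Among T cell states, Xcl1 was highest in state 9, a CD8 state led by Ccl1, Penk, Xcl1, Nrgn, Ccl4 and Lag3, with 2658 ± 1240 CPM (SD, n = 8 mice with at least 10 cells). State 7 had 728 ± 641 CPM (SD, n = 7), state 3 had 401 ± 156 CPM (SD, n = 12) and the cycling state 5 had 385 ± 229 CPM (SD, n = 10), a middle tier whose values overlapped. States 4 and 2 had 63.5 ± 59.4 and 54.2 ± 62.3 CPM. The lowest means were 20.4 CPM in state 1, 12 CPM in the gamma delta state 8 and 8.71 CPM in state 6, which was led by the regulatory T cell gene Foxp3. An Xcl1 UMI was found in 46.1% of state 9 cells. In state 9, the 74 of 369 cells with a UMI of Ifng, the interferon gamma gene, had 4105 CPM of Xcl1, against 1706 CPM in the cells without one, at median depths of 3066.5 and 2167 UMIs.

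**Figure D2:**
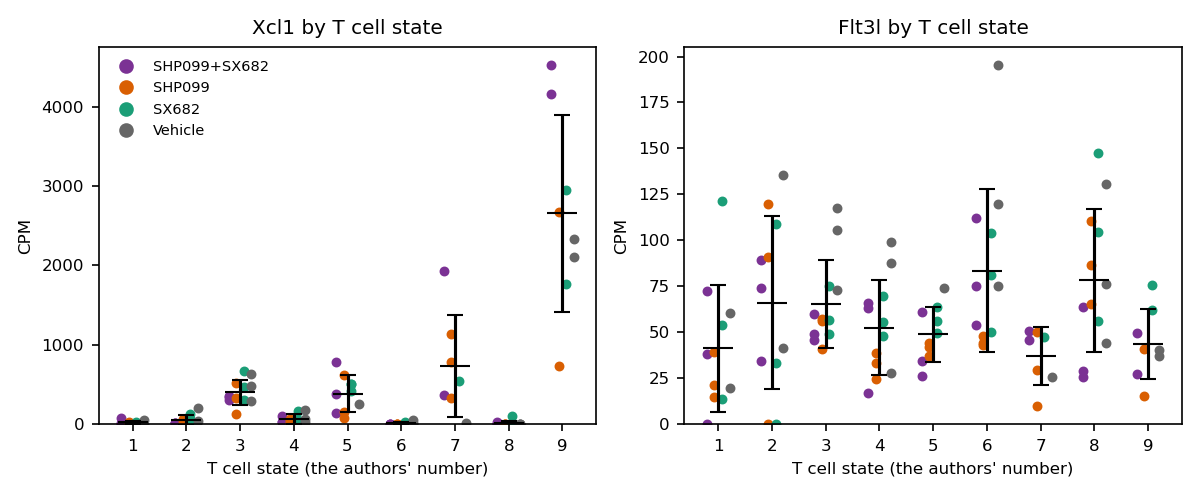
Xcl1 and Flt3l CPM in the authors' T cell states, 1 point for each mouse with at least 10 cells of the state, coloured by treatment, and the mean with its SD. Xcl1 stood highest in state 9, at a mean of 2658 CPM, whereas the Flt3l values of all 9 states overlapped.

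Flt3l, which encodes the growth factor of dendritic cells, was spread over lymphocytes. The highest means were 77.7 ± 23.4 CPM in T cluster 8, 76.5 ± 33.4 CPM in the gamma delta T cluster 9, 68.2 ± 37.6 CPM in NK cluster 7 and 58.3 ± 22.4 CPM in NK cluster 6 (SD, n = 12 each). T clusters 3, 5 and 2 followed with 51.6 ± 17.8, 45.1 ± 13.3 and 42.0 ± 19.8 CPM, and neighbours in this order did not differ beyond their spread. B cells had 20.5 ± 8.48 CPM. T cell states ran from 83.5 ± 44.4 CPM in state 6 to 37.0 ± 15.6 CPM in state 7, with overlapping values. T cells held 31.7% of the 2576 Flt3l UMIs, macrophages 21.1%, NK cells 10.6% and tumour cells 9.98%. Of all UMIs the same classes held 8.24%, 23.95%, 2.16% and 29.25%, so tumour cells held less Flt3l than their share. Macrophages held less over all mice, but more in Vehicle mice, at 30.9% of Flt3l UMIs against 26.7% of all UMIs. With SHP099+SX682, SHP099 and SX682 macrophages held 13.1%, 7.32% and 21.1% against 17.1%, 19.1% and 27.5%. T cells held 21.6% of the Flt3l UMIs in Vehicle mice. After thinning, 8.48% of NK cluster 7 cells had a Flt3l UMI, against 0.342% of tumour cluster 21 cells.

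The receptors were concentrated in dendritic cells. Xcr1, the XCL1 receptor, had 298 ± 82.9 CPM in cluster 18 (SD, n = 12), with mice between 171 and 456 CPM. The next cluster, the unnamed cluster 22, had 20.3 ± 27 CPM (SD, n = 4), on only 3 Xcr1 UMIs over all mice. Clusters of cDC1-like cells held 87.0% of the 2373 Xcr1 UMIs and 3.31% of all UMIs. Flt3, the receptor tyrosine kinase for FLT3 ligand, had 124 ± 25.6 CPM in cluster 18 and 103 ± 20.7 CPM in the mature cluster 17, which overlapped, 50.7 ± 44.2 CPM in cluster 4 and 40.4 ± 16.8 CPM in cluster 19. Clec9a had 428 ± 87.1 CPM in cluster 18 and 44.5 ± 46.4 CPM in cluster 4, the next highest. After thinning, 23.6% of cluster 18 cells had an Xcr1 UMI and 37.4% a Clec9a UMI, against 0.0978% and 0.0489% of tumour cluster 21 cells, at median depths of 7208 and 7395 UMIs.

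Cluster 4 mixed antibody-secreting cells with cells carrying Siglech, a marker of plasmacytoid dendritic cells. The 145 of its 288 cells with a Siglech UMI held 93.7% of its Clec9a UMIs, at 173 CPM against 4.42 CPM in the other cells. They also held 86.8% of its Flt3 UMIs, at 138 CPM against 7.96 CPM, and 93.6% of its Irf8 UMIs, at 2172 CPM against 56.6 CPM.

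Both transcription factor genes reached beyond cDC1-like cells. Batf3 was highest in the mature cluster 17 at 364 ± 56.0 CPM, followed by cluster 18 at 254 ± 38.6 CPM, cDC2 cluster 19 at 134 ± 40.7 CPM and the unnamed cluster 14 at 113 ± 32 CPM (SD, n = 12 each). Macrophages held 26.6% of its 6923 UMIs and 23.95% of all UMIs, whereas cDC1-like cells held 22.3% and 3.31%. Irf8, needed for cDC1 and also active in plasmacytoid dendritic cells, B cells and NK cells, had 1307 ± 177 CPM in cluster 18, 634 ± 450 CPM in cluster 4, 558 ± 211 CPM in NK cluster 6, 282 ± 80.8 CPM in cluster 17, 256 ± 91.8 CPM in NK cluster 7 and 211 ± 35.6 CPM in B cells. Of the 789 cells of cluster 18, 770 had an Irf8 UMI, 678 a Clec9a UMI, 591 an Xcr1 UMI, 589 a Batf3 UMI, 448 a Flt3 UMI and 39 a Flt3l UMI, and 542 had both Xcr1 and Clec9a.

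Likeness of pattern was measured as Pearson's r of log2(CPM + 10) over the 33 clusters, among 7866 genes with at least 50 CPM in some cluster, and is a description over clusters that share libraries. For Xcl1 the 5 most similar genes were Cd160 (r = 0.970), Cst7 (0.942), Ifng (0.939), Ctsw (0.936) and Nkg7 (0.932). Flt3l stood nearest to Zap70 (0.952), Sh2d2a (0.945), Gimap1os (0.937), Nlrc3 (0.930) and Sh2d1a (0.928). Xcr1 and Clec9a were among each other's 5 nearest genes (r = 0.823), with Gpr141b at 0.923 for Xcr1 and Mycl at 0.917 for Clec9a. Flt3 was nearest to Slc46a3 (0.866), Batf3 to Aif1 (0.915) and Irf8 to Slamf7 (0.837).

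Treatments were compared in sums of UMIs per mouse within a class of cells, with edgeR's quasi-likelihood test and Benjamini-Hochberg adjustment over all genes tested in the class, called at an adjusted p below 0.05. CPM values in these comparisons carry TMM scaling, fold changes are log2 of the treated group over Vehicle unless another pair is named, and the comparisons with Vehicle share the same 3 Vehicle mice. The share of all genes without overlap between groups is not given here, so a lack of overlap is a description.

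Xcl1 fell in NK cells with SHP099. NK cells had 1172, 579 and 1036 CPM of Xcl1 in the 3 SHP099+SX682 mice, 1029, 959.6 and 511 CPM in the SHP099 mice, 837, 1284 and 1278 CPM in the SX682 mice and 1518, 1222 and 1621 CPM in the Vehicle mice. Every SHP099+SX682 and SHP099 mouse lay below every Vehicle mouse, and the SX682 mice overlapped the Vehicle mice. With SHP099 the log2 fold change was -0.76 ± 0.21 (SE; edgeR adjusted p = 0.0135), in a comparison where 12.9% of the 4851 genes tested in NK cells were called. With SHP099+SX682 it was -0.65 ± 0.21 (edgeR adjusted p = 0.0672), where 4.82% were called, and with SX682 it was -0.34 ± 0.20, where 0.227% were called. The call did not hold without SHP099 replicate 3 (-0.53, edgeR adjusted p = 0.0889) or Vehicle replicate 3 (-0.68, edgeR adjusted p = 0.0606), nor in DESeq2 (-0.80, DESeq2 adjusted p = 0.0964).

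Xcl1 was called in NK cluster 6 and not in NK cluster 7. In cluster 6 it fell by 1.02 ± 0.33 on the log2 scale (SE) with SHP099 (edgeR adjusted p = 0.0403), at 162, 322 and 137 CPM in SHP099 mice against 499.5, 413 and 326 CPM in Vehicle mice, where 11.5% of genes were called. This call was lost with DESeq2 (DESeq2 adjusted p = 0.225) and without SHP099 replicate 1 or 3 or Vehicle replicate 1 or 2 (log2 -1.05 to -0.80). In cluster 7, where Xcl1 was highest, the values were 6017, 2541 and 1501 CPM with SHP099 and 3502, 2824 and 3450 CPM in Vehicle mice, which overlapped, with a log2 fold change of 0.03 ± 0.35 (edgeR adjusted p = 0.982) where 9.98% of genes were called. The difference between the 2 clusters was not tested. Cluster 7 made up 16.9 ± 5.29%, 15.9 ± 5.78%, 21.8 ± 7.17% and 24.3 ± 3.85% of NK cells with SHP099+SX682, SHP099, SX682 and Vehicle (SD, n = 3 mice each), so sums over NK cells also carry its share. Median UMIs per NK cell were 899 to 977, 1041 to 1088, 1334 to 1498 and 1137 to 1370 over the mice of those groups, and the part of depth was not tested.

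In CD8 T cells Xcl1 varied widely between mice. It measured 739, 703 and 215 CPM with SHP099+SX682, 162, 733 and 359.9 CPM with SHP099, 346, 884 and 754 CPM with SX682 and 520.4, 356 and 1023 CPM in Vehicle mice. All groups overlapped, and no comparison was called, the log2 fold changes being -0.13, -0.56 and 0.12. The SHP099 value rested on single mice, at -0.18 without SHP099 replicate 1, -1.24 without SHP099 replicate 2 and -0.06 without Vehicle replicate 3. State 9, the richest in Xcl1, made up 1.47% to 4.74% of T cells in SHP099+SX682 mice, 1.27% to 6.52% in SHP099 mice, 2.31% to 14.9% in SX682 mice and 2.3% to 12.9% in Vehicle mice.

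Flt3l fell in T cells with both SHP099 treatments. It measured 42.8, 49.2 and 55.7 CPM in SHP099+SX682 mice, 42.7, 39.6 and 46.5 CPM in SHP099 mice, 77.1, 54.3 and 56.2 CPM in SX682 mice and 87.5, 85.4 and 82.3 CPM in Vehicle mice. The 3 Vehicle mice stood above all 9 treated mice. Relative to Vehicle the log2 fold change was -0.82 ± 0.17 (SE) with SHP099+SX682 (edgeR adjusted p = 0.00846), -0.996 ± 0.168 with SHP099 (edgeR adjusted p = 0.00064) and -0.48 ± 0.16 with SX682 (edgeR adjusted p = 0.318). Of 8330 genes tested in T cells, 3.79%, 12.2% and 0.312% were called in those 3 comparisons. Without SHP099+SX682 replicate 1 the first adjusted p was 0.0511.

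CD8 T cells gave like values, since they are part of the T cells. Flt3l measured 45.5, 43.7 and 53.7 CPM with SHP099+SX682, 40.5, 42.8 and 50.5 CPM with SHP099, 76.3, 60.5 and 52.2 CPM with SX682 and 79.5, 85.3 and 91.4 CPM in Vehicle mice. Again no treated mouse reached the Vehicle range. With SHP099+SX682 the log2 fold change was -0.85 ± 0.22 (SE; edgeR adjusted p = 0.0336; 3.21% of genes called), a call lost without any 1 of the SHP099+SX682 replicates 1 and 2 or the 3 Vehicle replicates (adjusted p 0.0820 to 0.128), with DESeq2 (0.0826) and without the filter on low counts (0.0896). With SHP099 it was -0.91 ± 0.22 (edgeR adjusted p = 0.0131; 6.48% called), and the adjusted p was 0.0511 without Vehicle replicate 3. Within single states, Flt3l fell with SHP099 in state 3 (log2 -0.92 ± 0.29, edgeR adjusted p = 0.0351; 9.20% called) and state 4 (-1.35 ± 0.38, edgeR adjusted p = 0.0257; 7.54% called). The groups did not overlap in state 3 and overlapped in state 4, where 1 Vehicle mouse had 2 Flt3l UMIs. The state 3 call was lost with DESeq2, without the filter and without any 1 of the SHP099 replicates or Vehicle replicate 1 or 3 (log2 -0.98 to -0.81), and the state 4 call without SHP099 replicate 2 or 3 or Vehicle replicate 1 or 2 (-1.35 to -1.14). Summed macrophage markers in T cells had medians of 76.9 CPM with SHP099+SX682, 42.1 CPM with SHP099, 134 CPM with SX682 and 234 CPM with Vehicle, and Flt3l was at most 14.7 CPM in macrophages. The part of macrophage RNA in the T cell difference was not tested.

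Flt3l also fell in macrophages with SHP099. They had 11.8, 6.23 and 14.5 CPM with SHP099+SX682, 4.77, 6.66 and 3.41 CPM with SHP099, 10.7, 12.4 and 11.7 CPM with SX682 and 14.7, 13.5 and 13.4 CPM in Vehicle mice. The SHP099 mice were all below the Vehicle mice. With SHP099 it changed by -1.45 ± 0.29 on the log2 scale (SE; edgeR adjusted p = 0.0033), where 18% of 10862 genes were called, and the other treatments were not called (-0.43 with SHP099+SX682 and -0.26 with SX682, where 1.24% were called). Summed T cell markers in macrophages had medians of 456, 305, 514 and 524 CPM in SHP099+SX682, SHP099, SX682 and Vehicle mice, and their part in the Flt3l difference was not tested. NK cells had 28.5, 53.2 and 84.7 CPM with SHP099+SX682, 60.3, 56.7 and 24.6 CPM with SHP099, 71.4, 88.9 and 109 CPM with SX682 and 89.4, 49.8 and 63.6 CPM in Vehicle mice, overlapping throughout and with no call.

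**Figure D3:**
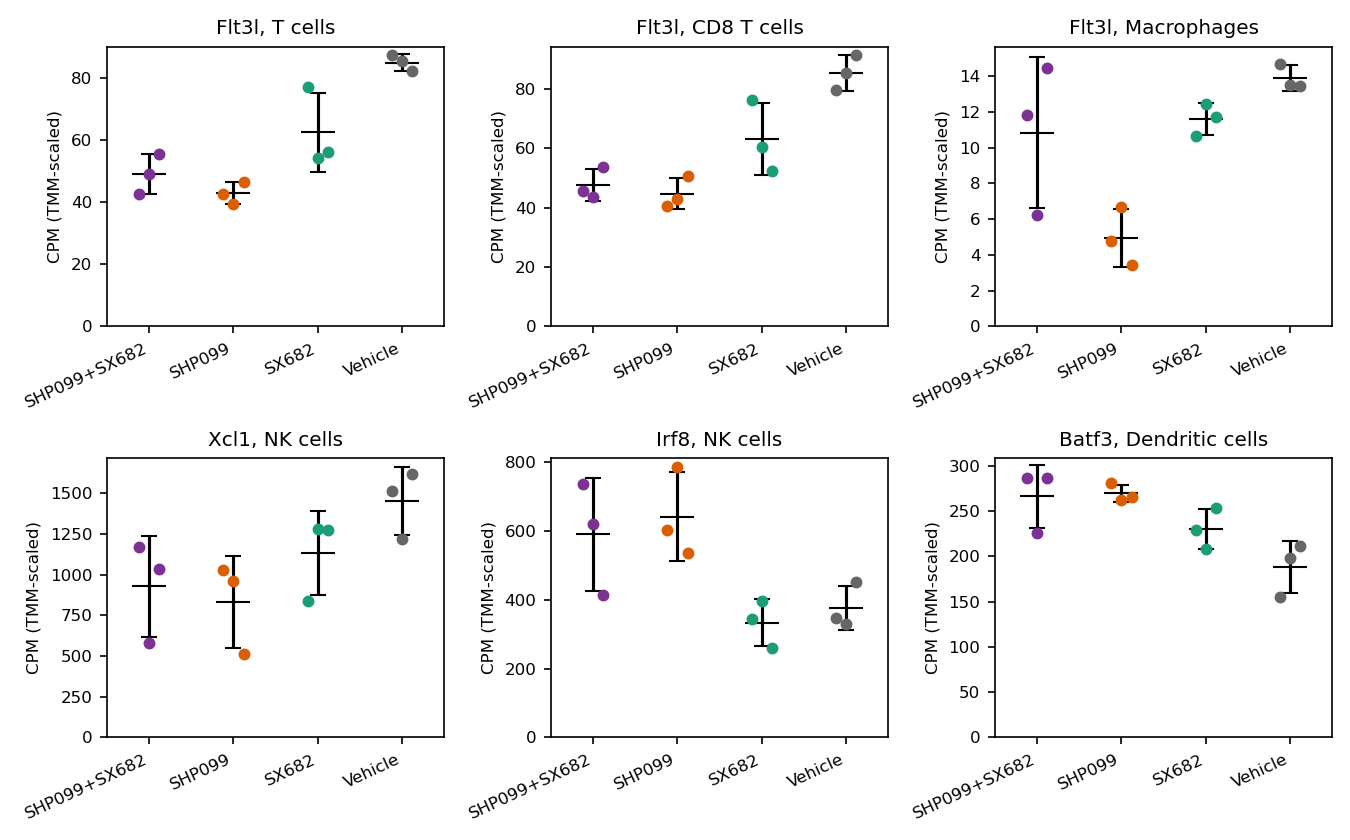
TMM-scaled CPM per mouse of Flt3l in T cells, CD8 T cells and macrophages, Xcl1 and Irf8 in NK cells and Batf3 in dendritic cells, with 3 points and a mean with its SD for each of SHP099+SX682, SHP099, SX682 and Vehicle. Flt3l in T cells of the 3 Vehicle mice, 82.3 to 87.5 CPM, lay above all 9 treated mice, and Irf8 in NK cells was 535 to 786 CPM with SHP099 against 330.3 to 450.3 CPM in Vehicle mice.

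In the cDC1-like cluster itself Xcr1, Clec9a, Flt3, Batf3 and Irf8 were tested, and edgeR called 0 of 5 against Vehicle in each of the 3 treatments. At an unadjusted p below 0.05 there were 3 with SHP099+SX682, 1 with SHP099 and 1 with SX682, beside 554, 816 and 284 of the 5030 genes tested, and DESeq2 called 0 of 5 with SHP099+SX682 and 0 of 5 with SHP099. Xcr1 measured 288, 179 and 289 CPM with SHP099+SX682, 206, 247 and 479 CPM with SHP099, 233, 359.5 and 374 CPM with SX682 and 359, 322 and 417 CPM in Vehicle mice. The SHP099+SX682 mice lay below the Vehicle mice (log2 -0.54 ± 0.25, edgeR adjusted p = 0.422) and the SHP099 mice overlapped them (-0.17 ± 0.24, but -0.72 without SHP099 replicate 3 and -0.017 without SHP099 replicate 2). Clec9a measured 475, 434 and 307 CPM with SHP099+SX682, 370.2, 242 and 474 CPM with SHP099, 422, 511 and 532 CPM with SX682 and 548, 564 and 515 CPM in Vehicle mice. Neither SHP099 treatment reached the Vehicle range, with log2 fold changes of -0.39 ± 0.18 (edgeR adjusted p = 0.438) with SHP099+SX682 and -0.57 ± 0.19 (edgeR adjusted p = 0.102) with SHP099. Without SHP099 replicate 3 the SHP099 value of Clec9a was -0.95 and passed (edgeR adjusted p = 0.0166), and without SHP099 replicate 2 it was -0.36. SHP099 replicate 2 stood apart in this cluster, with 4035 CPM of summed neutrophil markers against 10.1 and 22.1 CPM in the other SHP099 mice. Those markers were 255 to 845 CPM in SHP099+SX682 mice, 10.8 to 50.7 CPM in SX682 mice and 166 to 913 CPM in Vehicle mice. Macrophage markers were 25.5 to 33.2 CPM with SHP099+SX682 and 22.1 to 60.6 CPM with SHP099, against 114 to 586 CPM in Vehicle mice, and the part of these other cells was not tested.

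Flt3 and both transcription factor genes in cluster 18 were likewise not called. Flt3 measured 188, 134 and 131 CPM with SHP099+SX682, 92.6, 158 and 135 CPM with SHP099, 132, 124 and 111 CPM with SX682 and 131, 123 and 93.4 CPM in Vehicle mice. The SHP099+SX682 mice lay just above the Vehicle mice (log2 0.44 ± 0.22, but 0.16 without SHP099+SX682 replicate 1), and the other groups overlapped them (0.22 with SHP099, but 0.031 without SHP099 replicate 2, the mouse with most neutrophil markers). Batf3 measured 249, 287 and 307 CPM with SHP099+SX682, 278, 305 and 237 CPM with SHP099, 274, 287 and 284 CPM with SX682 and 199, 243 and 227 CPM in Vehicle mice, with log2 fold changes of 0.31 ± 0.16, 0.28 ± 0.16 and 0.33 ± 0.13, the SHP099 value being 0.13 without SHP099 replicate 2. The SHP099+SX682 and SX682 mice all lay above the Vehicle mice. Irf8 measured 1304, 1123 and 1043 CPM with SHP099+SX682, 1522, 1493 and 1619 CPM with SHP099, 1204, 1395 and 1496 CPM with SX682 and 1467, 1313 and 1427 CPM in Vehicle mice. Its log2 fold change was -0.27 ± 0.11 with SHP099+SX682 (edgeR adjusted p = 0.352) and 0.14 ± 0.11 with SHP099 (edgeR adjusted p = 0.553), with no overlap with Vehicle in either, and was 0.13 for SHP099 without SHP099 replicate 2 and 0.044 without SHP099 replicate 3. Of 5030 genes tested in cluster 18, 0.855%, 2.7% and 0.537% were called with SHP099+SX682, SHP099 and SX682, on 103, 65, 286 and 335 cells with SHP099+SX682, SHP099, SX682 and Vehicle. How many of all genes tested in cluster 18 were without overlap is not given here, so the separations of these uncalled genes are descriptions.

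The share of cDC1-like cells was low with SHP099. They were 1.06%, 0.646% and 0.784% of all cells in SHP099+SX682 mice, 0.343%, 0.940% and 1.00% in SHP099 mice, 2.03%, 1.77% and 4.76% in SX682 mice and 1.59%, 2.95% and 5.02% in Vehicle mice. All 6 mice given SHP099, alone or with SX682, lay below the 6 mice not given it. An exact permutation test of the 4 treatments over 369600 assignments of the mice, on the logit scale, gave F = 6.37 and p = 0.0177. As a share of dendritic cells the values were 27.5 ± 3.87%, 22.2 ± 7.63%, 30.9 ± 9.39% and 37.9 ± 11.9% with SHP099+SX682, SHP099, SX682 and Vehicle (SD, n = 3 mice each; exact permutation p = 0.222). On the untransformed share of all cells the exact permutation p was 0.0705.

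Dendritic cells as a whole were 2.99 ± 0.412% of all cells with SHP099+SX682, 3.32 ± 0.95% with SHP099, 8.85 ± 2.58% with SX682 and 8.05 ± 2.3% with Vehicle (SD, n = 3 mice each). The mature cluster was 41.9 ± 7.04%, 42.2 ± 5.30%, 24.2 ± 3.15% and 20.02 ± 2.13% of dendritic cells in the same groups (SD, n = 3 each), and the 6 mice given SHP099 stood above the other 6. Shares can move with dissociation and capture, and with 1 capture per treatment these cannot be told apart from the treatment.

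**Figure D4:**
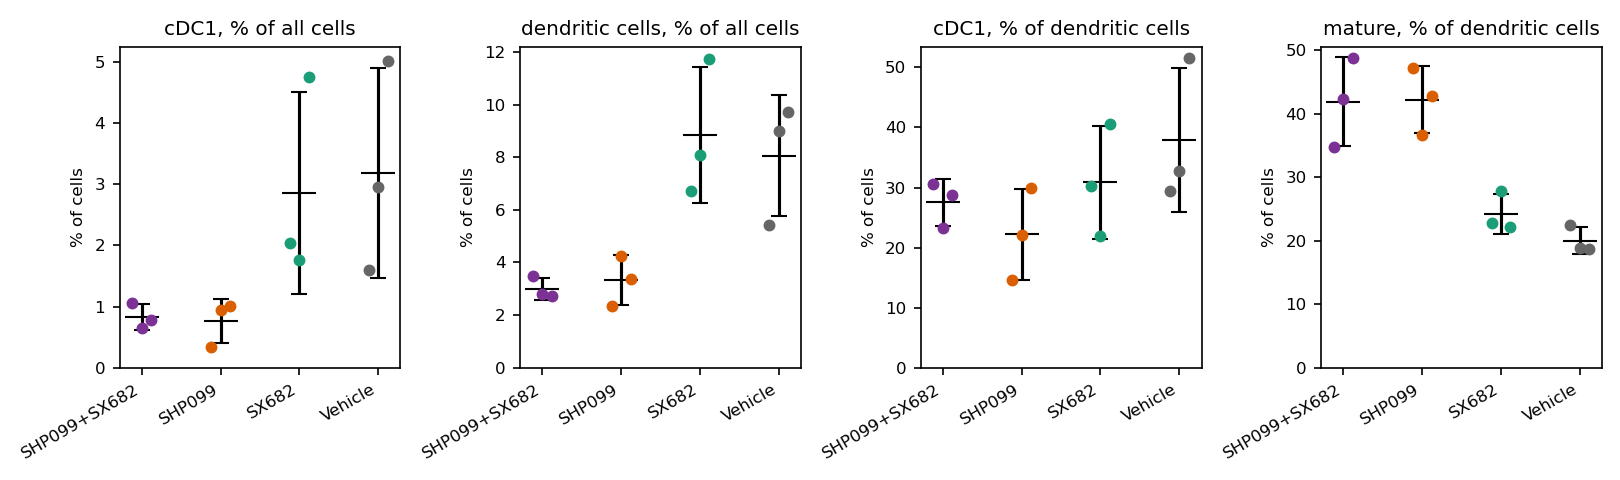
Percent per mouse of cDC1-like and of dendritic cells among all cells, and of cDC1-like and mature cells among dendritic cells, with 3 points and a mean with its SD for each of SHP099+SX682, SHP099, SX682 and Vehicle. Of all cells, cDC1-like cells were 0.343% to 1.06% in the 6 mice given SHP099 and 1.59% to 5.02% in the other 6.

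Over all dendritic cells summed, Batf3 rose with both SHP099 treatments and Clec9a fell with SHP099. Batf3 measured 287, 226 and 286 CPM with SHP099+SX682, 281, 263 and 266 CPM with SHP099, 229, 209 and 253 CPM with SX682 and 156, 198 and 211 CPM in Vehicle mice. No SHP099+SX682 or SHP099 mouse overlapped the Vehicle mice. On the log2 scale Batf3 rose by 0.49 ± 0.13 (SE) with SHP099+SX682 (edgeR adjusted p = 0.0389; 5.37% of 8466 genes called) and 0.52 ± 0.13 with SHP099 (edgeR adjusted p = 0.0156; 13.1% called), and its value was 0.29 with SX682, not called (0.508% called). Leaving out SHP099 replicate 1 or Vehicle replicate 1 ended the SHP099 call (edgeR adjusted p 0.0647 and 0.0571), and 7 of the 12 mice ended the SHP099+SX682 call, as listed with the processing, as did fitting the 2 treatments alone (edgeR adjusted p = 0.0658). Clec9a measured 75.5, 61.7 and 178 CPM with SHP099 and 174, 213 and 292 CPM in Vehicle mice, which overlapped, with a log2 fold change of -1.14 ± 0.32 (edgeR adjusted p = 0.0258). That call did not hold without SHP099 replicate 1 or 2 or Vehicle replicate 2 or 3 (log2 -1.19 to -0.84), nor in DESeq2 (-1.12, DESeq2 adjusted p = 0.0746), and the value was -1.75 without SHP099 replicate 3. Markers of other cells moved with these sums. Macrophage markers were 58.95 to 227 CPM with SHP099+SX682 and 63.1 to 203 CPM with SHP099, against 221 to 572 CPM in Vehicle mice, and tumour and epithelial markers were 102 to 145 CPM and 77.6 to 163 CPM against 260 to 294 CPM in the same groups. Neutrophil markers had medians of 633 CPM with SHP099+SX682 and 1127 CPM with SHP099, against 264 CPM in Vehicle mice, with ranges that overlapped, and the part of these cells in the Batf3 and Clec9a values was not tested. Sums over dendritic cells carry the shares of their clusters, which differed as given above: within the mature cluster, the richest in Batf3, the log2 fold change was 0.25 with SHP099+SX682 and 0.37 with SHP099, and neither was called (1.03% and 4.93% of genes called), nor was it with SX682 (0.27; 0.115% called).

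Sums over all cells of a mouse, in which fewer cells of a type and less RNA per cell cannot be told apart, gave calls between SHP099+SX682 and SX682. Flt3 measured 7.32, 5.34 and 4.28 CPM with SHP099+SX682 and 9.81, 12.2 and 24.2 CPM with SX682, without overlap (log2 -1.43 ± 0.35, edgeR adjusted p = 0.0278; 9.43% of 14702 genes called). Batf3 measured 27.3, 21.04 and 23.1 CPM with SHP099+SX682 and 37.1, 50.3 and 73.3 CPM with SX682, also without overlap (-1.17 ± 0.27, edgeR adjusted p = 0.0243). Without SX682 replicate 3, the highest mouse, neither held, at -0.96 for Flt3 and -0.88 for Batf3 (edgeR adjusted p = 0.0519 and 0.0547), nor did either with the 2 treatments fitted alone (edgeR adjusted p = 0.118 and 0.0750). Xcr1 measured 6.31, 2.26 and 4.39 CPM with SHP099+SX682 and 7.31, 13.6 and 27.9 CPM in Vehicle mice, without overlap and not called (-1.92 ± 0.79, edgeR adjusted p = 0.0972; 24.7% called).

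In macrophages Batf3 fell with SHP099+SX682. It measured 32.2, 25.3 and 27.3 CPM with SHP099+SX682, 34.6, 29.7 and 35.4 CPM with SHP099, 43.7, 50.4 and 41.7 CPM with SX682 and 32.8, 44.2 and 49.1 CPM in Vehicle mice. The SHP099+SX682 mice lay below both the SX682 and the Vehicle mice. It was lower by a log2 value of -0.58 ± 0.16 (SE) against Vehicle (edgeR adjusted p = 0.0318; 11.4% called) and -0.70 ± 0.16 against SX682 (edgeR adjusted p = 0.0151; 8.43% called), and each call was lost without 1 of several mice, as listed with the processing.

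Irf8 rose in NK cells with both SHP099 treatments. It measured 736, 619 and 413 CPM with SHP099+SX682, 603, 786 and 535 CPM with SHP099, 343, 397 and 259.9 CPM with SX682 and 347, 330.3 and 450.3 CPM in Vehicle mice. All SHP099 mice stood above all Vehicle mice, and 1 SHP099+SX682 mouse fell within the Vehicle range. The log2 fold change was 0.81 ± 0.19 (SE) with SHP099 (edgeR adjusted p = 0.00359), 0.69 ± 0.19 with SHP099+SX682 (edgeR adjusted p = 0.029) and -0.13 with SX682 (edgeR adjusted p = 0.924). SHP099+SX682 against SX682 gave 0.82 ± 0.18 (edgeR adjusted p = 0.00561; 4.10% called). The SHP099+SX682 call against Vehicle ended without SHP099+SX682 replicate 1 or 2 or Vehicle replicate 1 or 2 (log2 0.53 to 0.68), and the call against SX682 without SHP099+SX682 replicate 1 (0.66, edgeR adjusted p = 0.0590). Summed neutrophil markers in NK cells, of which 5 to 7 of 7 were detected in each mouse, were 1371 to 3039 CPM with SHP099+SX682, 721 to 1238 CPM with SHP099, 61.95 to 747 CPM with SX682 and 340 to 1766 CPM with Vehicle. Irf8 was at most 14.2 CPM in neutrophils, and the part of neutrophil RNA in the NK difference was not tested.

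In NK cluster 6 alone Irf8 rose by 0.74 ± 0.20 with SHP099 (edgeR adjusted p = 0.0116), at 661, 1058 and 724 CPM in SHP099 mice against 426, 431 and 661 CPM in Vehicle mice, which overlapped in 1 mouse of each group. This call was lost with DESeq2 (DESeq2 adjusted p = 0.106) and without SHP099 replicate 2 or Vehicle replicate 1 or 2 (log2 0.50 to 0.64). In cluster 7 it was 559, 408 and 283 CPM with SHP099 and 272, 219.6 and 227 CPM in Vehicle mice, without overlap and not called (0.78 ± 0.33, edgeR adjusted p = 0.143).

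Elsewhere Irf8 was not called against Vehicle. In B cells it measured 198, 209 and 147 CPM with SHP099+SX682, 196, 201 and 225 CPM with SHP099, 263, 239.9 and 277 CPM with SX682 and 211, 221 and 258 CPM in Vehicle mice. The SHP099+SX682 mice lay below the Vehicle mice and the others overlapped them, at log2 fold changes of -0.27, -0.12 and 0.20 in comparisons where 5.41%, 9.15% and 0.532% of genes were called. With SHP099 it was 62.5, 91.3 and 119 CPM in cDC2-like cells, against 37.0, 56.1 and 58.5 CPM in Vehicle mice (log2 0.86 ± 0.33, edgeR adjusted p = 0.128; 6.55% called). In neutrophils it was 3.80, 10.4 and 3.18 CPM with SHP099, against 14.2, 13.03 and 12.3 CPM in Vehicle mice (-1.09 ± 0.43, edgeR adjusted p = 0.0993; 13.1% called). In tumour cells it was 0.868, 2.61 and 1.79 CPM with SHP099, against 11.1, 8.79 and 11.7 CPM in Vehicle mice (-2.51 ± 1.09, edgeR adjusted p = 0.146; 13.5% called). The SHP099 mice did not overlap the Vehicle mice in any of these last 3 classes, none of them called, on low counts in the neutrophils and tumour cells. The share of all genes without overlap in these classes is not given here.

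**Figure D5:**
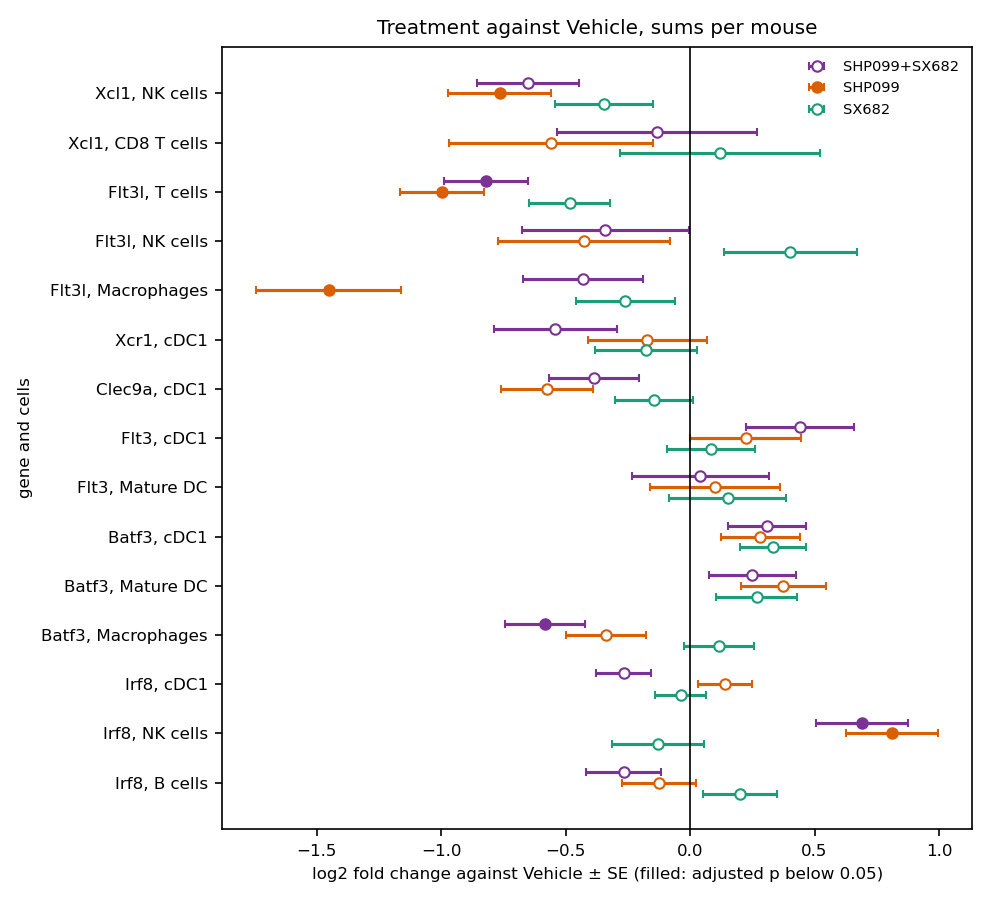
Log2 fold changes against Vehicle with SHP099+SX682, SHP099 and SX682, with standard errors, for 15 gene and cell class pairs, where filled points passed an edgeR adjusted p below 0.05. Irf8 in NK cells with SHP099 stood at 0.81 and Flt3l in T cells at -0.996, and the genes tested in cDC1-like cells were not called.

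Genes that act around the axis were described by lists, which were chosen with earlier results of these data known. Of 16 tested genes of dendritic cell maturation, 7 were higher and 0 lower in dendritic cells with SHP099+SX682, where 5.37% of all genes were called (median log2 0.73, against 0.00 over all genes tested), 7 higher and 0 lower with SHP099, where 13.1% were called (median 0.69, against 0.01), and edgeR called 0 of 16 with SX682 (median 0.24), where 5 had an unadjusted p below 0.05. With SHP099, Ccl22, a chemokine of mature dendritic cells, was 815 ± 116 CPM against 234 ± 18.9 CPM in Vehicle mice (SD, n = 3 each; log2 1.80 ± 0.21, edgeR adjusted p = 5.81e-05), and Socs2, Relb and Fscn1 rose by 1.02, 0.93 and 0.80. The mature cluster made up more of the dendritic cells with both SHP099 treatments, as given above. Ccr7, Fscn1, Ccl22 and Socs2 of this list were also markers for naming that cluster, and the part of its share in these sums was not tested. Within the mature cluster alone Ccl22 rose too, to 2235 ± 293 CPM with SHP099+SX682, against 1231 ± 120 CPM in Vehicle mice (SD, n = 3 each; log2 0.86 ± 0.12, edgeR adjusted p = 0.00165).

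Against the same 5.37% and 13.1% of all genes called, of 18 tested genes of MHC class I presentation 3 were higher and 0 lower in dendritic cells with SHP099+SX682, 6 higher and 1 lower with SHP099, and edgeR called 0 with SX682, where 4 had an unadjusted p below 0.05. B2m, the MHC class I light chain, rose by 0.52 ± 0.08 (edgeR adjusted p = 0.000475), the heavy chain gene H2-K1 by 0.55 ± 0.09, the peptide-loading gene Tapbp by 0.58 ± 0.11 and the proteasome activator gene Psme2 by 0.47 ± 0.10 on the log2 scale with SHP099. Medians of this list were 0.18 with SHP099+SX682 and 0.19 with SHP099. Among 11 other cDC1 genes, 1 was lower with SHP099+SX682 (median -0.49), 2 were lower with SHP099 (median -0.69), Cd24a (-0.70 ± 0.11) and Snx22 (-1.04 ± 0.33), and 0 were higher. All of these 11 genes except Cd24a were also markers for naming cluster 18. The 2 of 11 genes lower with SHP099 compare with 13.1% of all genes, and the part of the changed cluster shares in these sums was not tested. Of 16 development genes 2 were called with SHP099, a share near that of all genes, and these were the cytokine receptor genes Csf2rb (0.96 ± 0.15) and Kit (0.52 ± 0.16). In cluster 18 itself, 1 listed gene was called, the migration receptor gene Ccr7, lower with SX682 (-2.92 ± 0.63, edgeR adjusted p = 0.0312).

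In NK cells the 17 tested MHC class I and proteasome genes split, 3 higher and 3 lower with SHP099+SX682, where 4.82% of all genes were called, and 3 higher and 4 lower with SHP099, where 12.9% were. Psme2 (log2 -1.16 ± 0.15, edgeR adjusted p = 4.8e-06) and Psmb10 (-1.01 ± 0.17) fell and the chaperone gene Canx (0.85 ± 0.17) rose with SHP099. Of 5 tested cytokine genes in NK cells, Ccl5 rose by 0.64 ± 0.14 and Ifng (-1.60 ± 0.42, edgeR adjusted p = 0.025) and Ccl3 (-1.15 ± 0.32) fell with SHP099+SX682, against the same 4.82%. With SHP099 edgeR called 0 of these 5, where 1 had an unadjusted p below 0.05. In T cells, 1 of 9 tested cytokine genes was higher with SHP099+SX682, the chemokine gene Ccl5 (0.75 ± 0.20), and 1 lower, the lymphotoxin gene Ltb (-0.52 ± 0.11), against 3.79% of all genes called.

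Sorted Epcam+ tumour cells were read far deeper, at 59933609, 58905704 and 73361005 counted reads in the SHP099 libraries and 51939301, 52844715 and 52042918 in the Vehicle libraries. The kit was stranded and the counts were made without strand, so reads from overlapping and antisense genes cannot be told apart. The labels do not say whether the 3 libraries of a group came from separate mice, so p-values here measure the spread between libraries. Flt3l had 490, 524 and 499 reads with SHP099 and 310, 270 and 229 reads in Vehicle libraries, or 8.07, 8.70 and 6.94 CPM against 6.05, 5.12 and 4.42 CPM. The groups did not overlap, but the log2 fold change of 0.60 ± 0.21 was not called (edgeR adjusted p = 0.447), where 0.113% of 20314 genes were called. Irf8 had 7.52, 4.92 and 3.70 CPM with SHP099 and 11.2, 7.85 and 5.90 CPM in Vehicle libraries, overlapping and not called (-0.63 ± 0.34, and -0.95 to -0.33 with 1 library left out). Clec9a had 485, 732 and 165 reads with SHP099 and 215, 208 and 173 reads in Vehicle libraries, overlapping (0.97 ± 0.53), and its neighbour Clec1b, which shares exonic bases with it, had 264, 279 and 179 reads with SHP099 against 75, 91 and 161 reads in Vehicle libraries. Xcl1 had 1, 4 and 0 reads with SHP099 and 1, 3 and 0 in Vehicle libraries, and Xcr1 had 1, 2 and 4 reads with SHP099 and 14, 0 and 0 in Vehicle libraries, and neither was tested. Ptprc, the pan-leukocyte gene, had 844, 545 and 250 reads with SHP099 and 938, 610 and 589 reads in Vehicle libraries, and the part of leukocyte RNA in these values was not tested.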

How the data were processed

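Live cells of dissociated tumour nodules from 12 mice were measured by 10x single-cell RNA-seq, and sorted Epcam+ cells by bulk RNA-seq. The deposited single-cell matrix holds UMI counts per gene and cell, and the authors deposited the cluster, T cell state, treatment and hashtag mouse of each cell. The deposited bulk files hold read counts per gene, made without strand per the file names. Per the submitters' processing notes the tools were bcl2fastq, Cell Ranger, STAR, Picard, HTSeq, DESeq2, bedtools and R 3.3.0, with mm10 as the build; further versions, doublet treatment and the order of steps were not given in the sources used here, and no doublet caller was run here. Whether same-numbered mice or libraries share a litter or day was not stated.

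UMI counts were summed per mouse over the cells of a class, with at least 10 cells per mouse, and fitted in edgeR 4.0.16 (R 4.3.3; filterByExpr, TMM, quasi-likelihood F test, two-sided) with the 4 treatments in 1 model. Bulk counts were fitted the same way with 2 groups. P-values were adjusted over all genes tested. Shares were tested by exact permutation over mice, in Python 3.11.15 with scipy 1.17.1, on the logit with 0.5 cells added. Cell classes were named from marker lists, and CD8 states were those with at least 5 times as many UMIs of Cd8a and Cd8b1 as of Cd4. The procedures were tested on simulated data. Alternatives were DESeq2 1.42.0, no filter, 2 treatments alone, the replicate number as a block and each mouse left out. Correlations of deviations between same-numbered mice ran -0.0926 to 0.0968 in NK cells, -0.106 to 0.271 in dendritic cells and -0.110 to 0.429 in all cells (18 pairs each). Their medians were -0.00232, 0.0463 and 0.0677, against 0.00376, -0.0214 and -0.0643 between different numbers. Numbers were not taken as pairs, because not all same-numbered pairs correlated above 0.1. This rule asks for every pair to pass, so it cannot exclude pairing, and a shared litter or day was not tested.

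The genes named were the 7 members in every class, for each the 5 most alike genes over clusters, and up to 4 called genes per list and comparison with the lowest adjusted p. Members and lists were chosen with earlier results of these data known, and the fits within single NK clusters and T cell states were added after the data were seen.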

Additional observations from a re-analysis of the deposited data

Results flagged for a closer look

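Several log2 fold changes had opposite signs in different cell types, with every treated mouse on 1 side of every Vehicle mouse in each. They are listed for that separation, most were not called, and the share of all genes so separated is not given here. In each case the difference between the cell types was not tested. With SHP099, the log2 fold change of Irf8 was 0.81 in NK cells, 0.86 in cDC2-like cells and 0.14 in cDC1-like cells, but -1.09 in neutrophils and -2.51 in tumour cells, and of these the NK value passed the test. The tumour value rested on 1, 4 and 2 UMIs in the SHP099 mice against 170, 61 and 88 in the Vehicle mice. Scaled to depth these were 0.868, 2.61 and 1.79 CPM against 11.1, 8.79 and 11.7 CPM. In sorted Epcam+ cells Irf8 was -0.63, overlapping and not called. Flt3l was 0.44 in tumour cells and 0.60 in sorted Epcam+ cells with SHP099, neither called, but -1.0 in T cells and -1.45 in macrophages. Batf3 was 0.37 in mature dendritic cells and -2.14 in tumour cells with SHP099, neither called. The tumour value rested on 1 UMI in each SHP099 mouse, at 0.868, 0.651 and 0.897 CPM against 3.34, 2.74 and 4.64 CPM in Vehicle mice.

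With SX682, Flt3l was 0.64 in neutrophils, -0.48 in T cells and -0.26 in macrophages, none of them called. The neutrophil value rested on 30 UMIs over the SX682 mice and 14 over the Vehicle mice. With SHP099+SX682, Flt3 was 0.44 in cDC1-like cells and -1.17 in macrophages, neither called. Batf3 was 0.31 in cDC1-like cells, not called, and -0.58 in macrophages, which passed the test. The macrophage value of Flt3 rested on 4, 4 and 2 UMIs in the SHP099+SX682 mice, against 26, 21 and 25 in the Vehicle mice. Scaled to depth these were 2.63, 1.47 and 1.11 CPM against 2.96, 4.24 and 4.31 CPM.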

How the results depend on the processing

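Over the 16 member results called in a class, 284 alternatives were computed and 55 changed a label, in 14 results. DESeq2 ended 3 calls: Xcl1 in NK cells with SHP099 (log2 -0.80), Flt3l in CD8 T cells with SHP099+SX682 (-0.84) and Clec9a in dendritic cells with SHP099 (-1.12). Without the filter Flt3l in CD8 T cells with SHP099+SX682 was -0.77 and not called. With 2 treatments alone, Batf3 in dendritic cells with SHP099+SX682 (0.50) and, for SHP099+SX682 minus SX682 in all cells, Flt3 (-1.44) and Batf3 (-1.18) were not called. Within single clusters or states, added after the data were seen, Xcl1 with SHP099 was 0.027 in NK cluster 7, the reverse sign; Irf8 in NK clusters 6 and 7 was 0.62 and 0.52 with SHP099+SX682, 0.78 in cluster 7 with SHP099 and 0.33 in cluster 7 for SHP099+SX682 minus SX682; and Flt3l with SHP099+SX682 was -0.99 in T state 3 and -0.77 in T state 4, none called. The exact permutation p of the cDC1 share was 0.222 over dendritic cells and 0.0705 untransformed. The replicate block changed no call (for example 0.80 for Irf8 in NK cells with SHP099).

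Leaving out each mouse in turn gave these log2 ranges. Irf8 in NK cells ran 0.53 to 0.89 with SHP099+SX682, 0.64 to 0.94 with SHP099 and 0.66 to 1.02 for SHP099+SX682 minus SX682. Xcl1 in NK cells with SHP099 ran -0.95 to -0.53. Flt3l with SHP099+SX682 and SHP099 ran -0.89 to -0.73 and -1.05 to -0.94 in T cells, and -0.91 to -0.77 and -1.01 to -0.84 in CD8 T cells. In macrophages with SHP099 it ran -1.75 to -1.26. Batf3 in dendritic cells ran 0.38 to 0.59 with SHP099+SX682, where the call ended without SHP099+SX682 replicate 1 or 3, any SHP099 replicate or Vehicle replicate 1 or 2, and 0.40 to 0.61 with SHP099. Clec9a in dendritic cells with SHP099 ran -1.75 to -0.84. Batf3 in macrophages ran -0.74 to -0.46 with SHP099+SX682, where the call ended without SHP099+SX682 replicate 2 or 3 or Vehicle replicate 2 or 3, and -0.79 to -0.62 against SX682, where it ended without SHP099+SX682 replicate 2 or 3 or SX682 replicate 2. In all cells, SHP099+SX682 minus SX682, Flt3 ran -1.67 to -0.96, ending without SHP099+SX682 replicate 2 or 3 or SX682 replicate 3, and Batf3 -1.38 to -0.88, ending without any SHP099+SX682 replicate or SX682 replicate 3. The share p ran 0.0114 to 0.0412.

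Without the filter, 4 uncalled results passed: Clec9a (-0.70, SHP099) and Xcr1 (-0.66, SHP099+SX682) in cDC1-like cells, Xcl1 in CD8 T cells (-0.51, SHP099) and Xcl1 in NK cells (-0.69, SHP099+SX682), the last also with 2 treatments alone (-0.65) and without SHP099+SX682 replicate 1 (-0.85) or SHP099 replicate 3 (-0.65), and Clec9a also without SHP099 replicate 3 (-0.95). Counts of genes called moved by over 1.5 times under DESeq2, to 373 of a main 628 (NK cells, SHP099), 145 of 234 (NK cells, SHP099+SX682), 594 of 1017 (T cells, SHP099) and 286 of 438 (CD8 T cells, SHP099); without the filter, to 343 against 217 (CD8 T cells, SHP099+SX682), 519 against 316 (T cells, SHP099+SX682), 802 against 455 (dendritic cells, SHP099+SX682) and 316 against 199 (NK cells, SHP099+SX682 minus SX682); and with 2 treatments alone to 327 against 1386 (all cells, SHP099+SX682 minus SX682). With 1 mouse left out, counts fell by over 1.5 times in 12 of the 13 comparisons: to as few as 107 of 234 (NK cells, SHP099+SX682), 114 of 199 (NK cells, against SX682), 142 of 316 and 632 of 1017 (T cells, SHP099+SX682 and SHP099), 70 of 217 and 250 of 438 (CD8 T cells, the same), 168 of 455 and 612 of 1108 (dendritic cells, the same), 704 of 1236, 1241 of 1958 and 509 of 916 (macrophages, SHP099+SX682, SHP099 and against SX682) and 611 of 1386 (all cells, against SX682). The cause was not tested in any case. Limits are 3 mice per group, 1 capture per treatment, 65 cDC1-like cells with SHP099, and too few fibroblasts with SHP099 for a comparison.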
